A study of Talpa occidentalis and Mus musculus with 35 samples.

Results

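The loci described here carry either a LOC number or the name BMS1P20 in the gene annotation of the Iberian mole, Talpa occidentalis, assembly talOcc3. They were chosen by name alone: gene lines whose identifier begins with LOC and digits, or with BMS1P20, with the copy suffix and any low-confidence mark removed before loci were counted. The rule gave 476 loci of 23336 gene lines, 2.04% of the annotation. They carry 122 names, of which 121 are LOC names with 414 loci and 1 is BMS1P20 with 62 loci. Among them are names scattered over many scaffolds, names with part of their loci in tandem, and 98 names with a single locus each. The arrangement of LOC105379528, a name with 66 loci, could not be read because most of them are alone on their scaffold.

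A LOC number is a placeholder that a gene record carries until a gene symbol is assigned, so the name itself says nothing about function. Annotations transfer such names from another species by similarity, and several kinds of sequence can end up with one. Transposable elements and endogenous retroviruses encode proteins and lie in many copies across a mammalian genome. Immunoglobulin variable segments are short gene pieces in clusters; each has a small leader exon and a larger variable exon, and they are joined to other segments only in B cells. BMS1P20 is, in human, a pseudogene named after BMS1, a ribosome biogenesis gene, and it lies in the immunoglobulin lambda light chain region.

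The series itself was made from 35 polyadenylated RNA libraries of gonads in 16 groups. Mole libraries number 19: testicular and ovarian parts of the ovotestis (the female gonad, which keeps testis-like tissue), with 3 libraries of each at postnatal day 7 and 2 of each from adults, the whole ovotestis at embryonic day 15 (2), and testis at embryonic day 15 (2), postnatal day 7 (3) and in adults (2). Mouse libraries number 16: embryonic day 13.5 ovaries, 2 labelled as Fgf9 mutant and 2 as wild-type B6, and wild-type CD1 ovary and testis at embryonic day 13.5, postnatal day 7 and 10 weeks (2 each). The strain labels of the mutant and B6 libraries run on in their number, so the exact substrain of each is uncertain. The annotation analysed here holds positions and a score and no value of any library; expression of these loci and the depth of the libraries are not analysed here. A set of gene models has no replicates, and loci of 1 name share a sequence, so the values below are descriptions without a test.

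As a group the loci were shorter, less often spliced and more often on small scaffolds than other named loci. Of the 476 loci 218 had a single coding exon (45.8%), against 19.4% of 21014 other named loci. The median locus had 2 exons (quartiles 1 and 2), against 6 (quartiles 2 and 11) for other named loci. Coding length had a median of 706 bases, against 1080 bases for other named loci. It was a multiple of 3, as an open reading frame requires, in 344 loci (72.3%), against 89.4% of other named loci. On scaffolds whose last annotated base lay below 10000 there were 170 loci (35.7%), against 4.63% of other named loci, and 137 (28.8%) were the only locus of their scaffold, against 4.18%. Loci of the same name on 1 scaffold were called tandem where no more than 10 further loci stood between them; 86 loci were (18.1%), against 16.4% of other named loci.

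These averages mix unlike names. The 8 names with 10 or more loci held 324 loci, 68.1% of the total: LOC107986724 with 95, LOC105379528 with 66, BMS1P20 with 62, LOC107983994 with 33, LOC107986994 with 28, LOC107985956 with 15, LOC105374013 with 14 and LOC107984745 with 11. A further 16 names had 2 to 5 loci each, 54 in all. The remaining 98 names stood on 1 locus each, and in exon number, coding length, frame and scaffold size these 98 lay between the repeated names and other genes named once. They had a median of 4 exons, against 8 for 13727 other names with 1 locus, and 18 of them (18.4%) had a single exon, against 7.10%. Their coding length was a multiple of 3 in 89 of 98 loci (90.8%), against 93.6% of other names with 1 locus. In the 8 repeated names it was a multiple of 3 in 213 of 324 loci (65.7%).

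**Figure D1:**
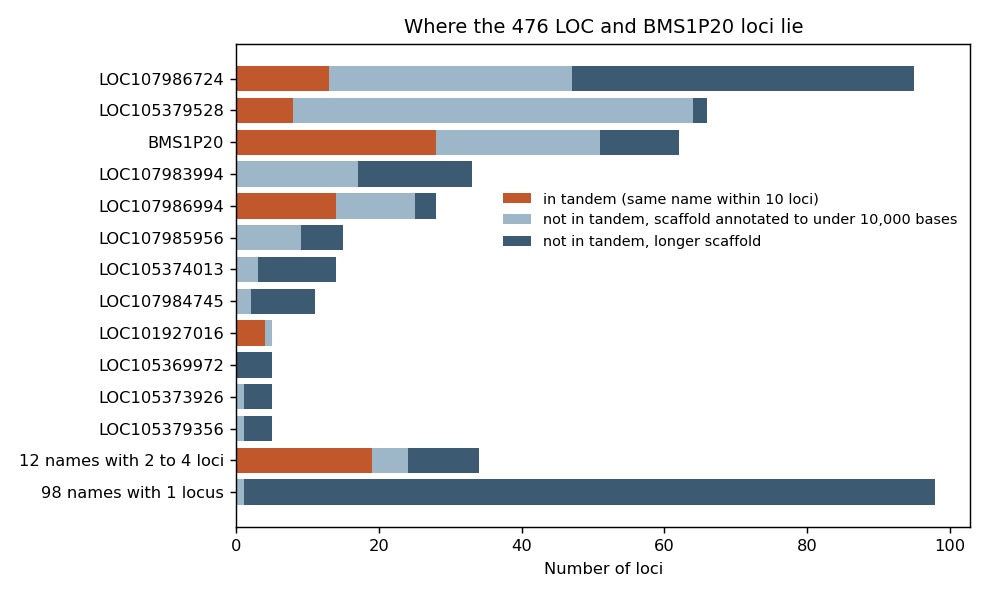
Number of loci (horizontal axis) for each name with 5 or more loci, for 12 names with 2 to 4 loci and for 98 names with 1 locus, divided into loci in tandem, loci not in tandem on scaffolds annotated to under 10,000 bases, and loci not in tandem on longer scaffolds. BMS1P20 has 28 tandem loci and LOC107986994 has 14, while LOC107983994, LOC107985956, LOC105374013 and LOC107984745 have none.

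The most frequent name, LOC107986724, had the features of an interspersed sequence. Its 95 loci lay on 69 scaffolds, 13 of them in tandem, and all 95 came from exonerate, a program that aligns proteins to a genome. A single exon made up 67 of the models (70.5%), and the coding length, with a median of 1233 bases (quartiles 823 and 1788), was a multiple of 3 in 46 loci (48.4%). That share is lower than in olfactory receptor loci (89.4%), a family of true single-exon arrays. It is also lower than in ribosomal protein loci (69.0%), a family rich in processed copies. Ribosomal protein loci are here those named RPL or RPS and a digit, which takes in kinase genes such as RPS6KA3. The reference intervals of LOC107986724 lay between residues 7 and 327 in 94 loci and between bases 137 and 347 in 1, and the aligned part made up 51.1% of the model at the median. Its largest array was 3 loci on scaffold 20, spread over 2761 kb between EFCAB1, which encodes a calcium-binding protein of the cilium, and ST18, which encodes a transcription factor.

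A fixed architecture recurred among its spliced models. Of the 25 models with 2 exons, 20 had a gap of 390 to 410 bases between the exons (median of the 25, 399 bases), and these 20 lay on 17 different scaffolds and were built from 1 and the same protein. Only 7 of the 20 kept a coding length divisible by 3. Among 1670 other named loci with 2 exons, 16 (0.958%) had a gap in that window, and the quartiles were 374 and 4777 bases. Gaps of a fixed and very short length also marked LOC107985956, in which 8 of 10 were under 50 bases with a median of 33 bases, and LOC105374013, in which all 8 measured 36 to 39 bases. Gaps under 50 bases were found in 3.41% of the other named loci with 2 exons.

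**Figure D2:**
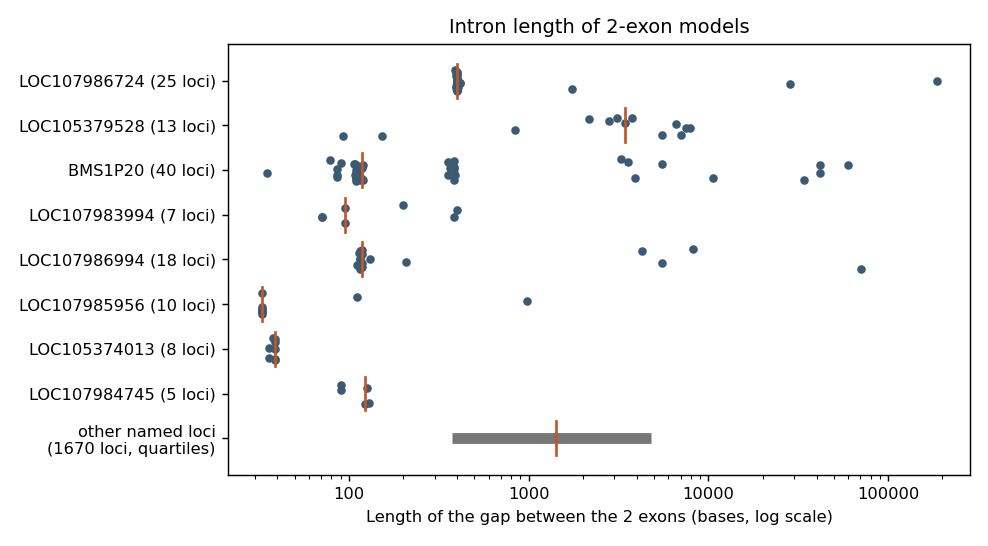
Length of the gap between both exons (bases, log scale) of every 2-exon model of the 8 most frequent names, 1 point per locus with the median as a vertical line, and the quartiles and median of 1670 other named loci as a bar. Points of LOC107986724 pile up near 399 bases, those of LOC107985956 at 33 and those of LOC105374013 at 39 bases, whereas LOC105379528 is spread from 93 to 7926 bases.

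Several of these names were given to models of the same protein. The model identifiers name a source protein for 347 of the 476 loci, and 118 different proteins occur. The most used one, whose identifier starts with HG, gave 67 loci under 5 LOC names (LOC107986724, LOC107983994, LOC105369972, LOC107986062 and LOC105374085), 18 loci named XYLB and 110 loci without any symbol. XYLB encodes a xylulokinase-like sugar kinase. Between the 18 loci and the LOC loci only the source protein was compared, and the identity of the protein was not stated in the files. A locus named XYLB lay 0.076 kb from a tandem pair of LOC107986724 on scaffold 66. Joined through shared proteins, 6 LOC names formed a set of 139 loci on 96 scaffolds, of which 100 (71.9%) had a single exon, 74 (53.2%) kept the frame and 13 (9.35%) were tandem. The same 7 proteins stood behind 247 loci without a symbol.

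A second set, of 5 LOC names, was joined through shared proteins, and 1 of these proteins also gave a locus with a retroviral envelope name. LOC107985956, LOC107984745, LOC105373926, LOC105379356 and LOC105369436 had 37 loci on 30 scaffolds, none of them tandem, and 117 loci without a symbol came from the same 7 proteins. One of these proteins also gave a locus named ERVW-1, an endogenous retrovirus envelope gene known in human as syncytin-1, which fuses placental cells. Of the 37 loci that protein gave only 3, namely 2 of LOC107984745 and 1 of LOC105369436. The other names of the set shared no source protein with ERVW-1 and were linked to it only through LOC107984745. ERVW-1 itself had 17 loci on 16 scaffolds, and ERVFRD-1, the envelope gene known as syncytin-2, had 8 loci on 8 scaffolds. Of a list of 34 names derived from transposable elements or endogenous retroviruses, 25 had a locus and 6 had several, with a median of 1 locus among those present. LOC107984745 held the longest models of the frequent names, with a median of 2250 coding bases, but only 28.7% of a model matched the reference at the median. LOC105374013 drew on a single source: all 14 loci came from 1 protein, on 13 scaffolds, with coding lengths from 801 to 1083 bases, and that protein also gave 103 loci without a symbol.

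The strand of these loci was uneven in a way that followed how the reference interval was recorded. For each locus the annotation gives the interval of the model and of the reference that were aligned, and their ratio shows whether the reference was counted in bases (ratio 0.67 to 1.5) or in amino acid residues (2.5 to 3.5). In residues were 187 loci under 10 LOC names, and all 187 lay on the plus strand. In bases were 264 loci, with 137 on the plus and 127 on the minus strand. The other named loci showed the same split, with 654 plus and 10 minus among those in residues and 9918 plus and 10017 minus among those in bases. Loci without a symbol that were built from the same proteins as the 187 numbered 467, of which 161 were plus and 306 minus. Put together, loci with a LOC name and loci without a symbol from those 15 proteins came to 347 on the plus and 309 on the minus strand. For names of this kind a count of loci therefore covers almost only the plus strand: LOC107986724 had 94 of 95 loci on it, and LOC107983994 33 of 33. The naming procedure was not given in the sources used here, and its part in this split was not tested.

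**Figure D3:**
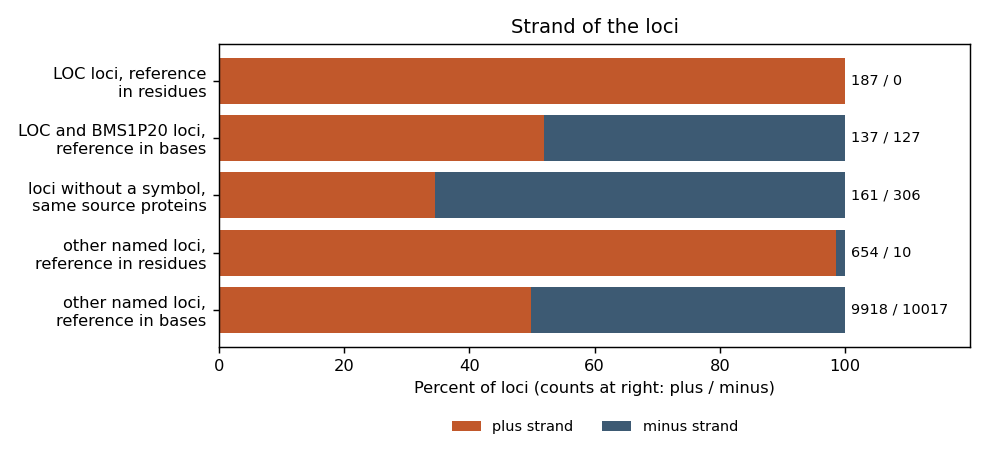
Percent of loci on the plus and the minus strand for LOC loci whose reference interval is in residues, LOC and BMS1P20 loci with an interval in bases, loci without a symbol from the same source proteins, and other named loci of both kinds; counts stand at the right. All 187 LOC loci in residues are plus, while 306 of 467 loci without a symbol from the same proteins are minus.

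BMS1P20 differed from those names in both layout and structure. Its 62 loci lay on 38 scaffolds, 28 of them in tandem (45.2%), and only 10 (16.1%) had a single exon. The coding length had a median of 439 bases (quartiles 363 and 579) and was a multiple of 3 in 52 loci (83.9%), against 48.4% for LOC107986724. For scale, the tandem share was 70.8% in olfactory receptor loci and 87.3% in the 63 loci of TRIM38, a repeated ubiquitin ligase gene. It was 3.97% in ribosomal protein loci and 13.7% for LOC107986724. A tandem neighbour can be seen only where a scaffold holds several loci. Of the BMS1P20 loci 29 (46.8%) were alone on their scaffold. That share was 5.60% for olfactory receptor, 12.7% for TRIM38, 3.17% for ribosomal protein and 17.9% for LOC107986724 loci. The tandem shares are therefore not directly comparable. Gene models combined by EVM, a program that weighs several kinds of evidence, made up 41 of the 62. The 40 models with 2 exons had a first exon of 73 bases, a gap of 118 bases and a second exon of 356 bases at the median, in 5′ to 3′ order, and 22 gaps fell between 50 and 200 bases. Among other named loci with 2 exons the medians were 207, 1420 and 287 bases, and 12.3% of the gaps fell in that range.

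The largest BMS1P20 array lay on scaffold 14 from 49457742 to 50331446, with 12 loci over 874 kb in 2 separate blocks. The first block held 8 loci on the plus strand within 72.4 kb, beginning 26.2 kb from ZNF33B, a zinc finger gene. The second held 4 loci on the minus strand between BCR, a signalling gene known from the Philadelphia chromosome of leukaemia, and LBR, the lamin B receptor gene, 24.1 kb beyond the last locus. Between the blocks stood 3 loci of IGLL5, which encodes an immunoglobulin lambda-like chain, as well as PRAME (a tumour antigen gene), SLC5A1 (a glucose transporter gene), RSPH14 (a ciliary gene), GNAZ (a G protein subunit gene) and RAB36 (a GTPase gene). Of 29 genes that flank the lambda locus in human, 25 had a locus in the annotation, 6 of them on scaffold 14 and all 6 within 1000 kb of a BMS1P20 locus: IGLL5, PRAME, GNAZ, RAB36, BCR and RSPH14. BMS1 itself had a single locus, on scaffold 11. The block of 8 also enclosed 1 locus of LOC107983994, 1188 bases in 1 exon. A second array of 10 loci lay on scaffold 63 over 419 kb, all 10 on the plus strand, and 3 arrays of 2 loci lay on scaffolds 339, 379 and 523.

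The BMS1P20 loci matched 2 separate stretches of the reference. A first stretch, from 1049 to 1414, was matched by 19 loci with a median coding length of 492 bases, and their score reached 83.5% of the highest score of the name at the median (quartiles 78.4% and 90.0%). A second stretch, from 1700 to 2008, was matched by 41 loci with a median of 378 bases and 57.9% of the highest score (quartiles 45.0% and 74.1%). A further 2 loci spanned both. On scaffold 14 the first stretch was matched by 7 loci and the second by 5, and on scaffold 63 by 4 and 5, so both kinds lay in both arrays. The source protein named for 1 of the models is LV405, a human immunoglobulin lambda variable segment. That model had 4 exons, 324 coding bases and a low score, 118 against a highest of 340.

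LOC107986994 formed an array in which most loci had nearly the same coding length. It had 28 loci on 16 scaffolds, 14 of them tandem and 11 (39.3%) alone on their scaffold. Of the 28 loci 12 stood on scaffold 9 from 42425892 to 42689334, 11 on the plus strand and 1 on the minus strand. The median gap between neighbouring loci of this array was 9.09 kb (2.81 to 27.3 kb), the median coding length was 372 bases, and all 12 kept the frame; 3 models were longer, at 711, 717 and 1122 bases. Across the 28 loci the coding length had quartiles of 366 and 378 bases. The 18 models with 2 exons had a first exon of 55 bases, a gap of 118 bases and a second exon of 317 bases at the median, and for the second exon both quartiles were 317 as well. The array lay between PAX8, a thyroid and kidney transcription factor gene 116 kb away, and RPIA, a pentose phosphate pathway enzyme gene 48.9 kb away. LOC107987009, a name with 3 loci that shares a source protein with LOC107986994, had 2 single-exon loci inside the array, of 267 and 240 bases. In human the immunoglobulin kappa locus lies beside RPIA and EIF2AK3, the gene of a stress kinase of the endoplasmic reticulum; in talOcc3 EIF2AK3 was the next gene after RPIA.

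**Figure D4:**
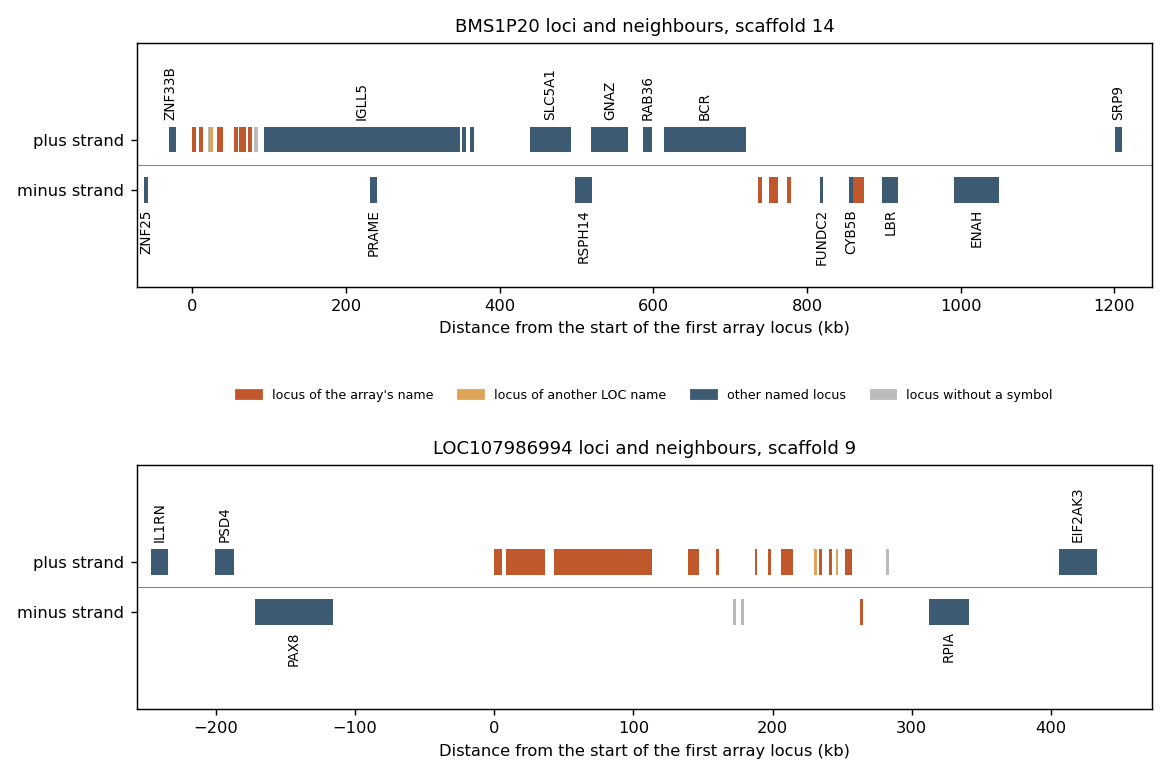
Loci on the plus strand (upper row) and the minus strand (lower row) around the largest BMS1P20 array on scaffold 14 and the largest LOC107986994 array on scaffold 9, by distance in kb from the start of the first locus of the array; short loci are drawn at a minimum width. The BMS1P20 loci stand in a plus-strand block of 8 and a minus-strand block of 4 on either side of IGLL5, GNAZ, RAB36 and BCR, and 11 of the 12 LOC107986994 loci are on the plus strand between PAX8 and RPIA.

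The annotation of the later mole assembly MPIMG_talOcc4v2.1, read here only for names, gene types and gene order, lists V segments beside genes that flank both arrays, but its gene order around BCR differs from that of talOcc3. It lists 201 V segments and 20 C regions among 31603 genes, and none of the 122 names occurs in it. These totals include stretches that hold no gene flanking either array, such as 52 V segments between SALL2 and DAD1 and 23 between MGAM and EPHB6. Between RPIA and PAX8 the later annotation lists 20 V segments and no C region. In a stretch ending at ZNF33B that also contains RSPH14, GNAZ, RAB36 and BCR it lists 95 V segments and 8 C regions, 6 of the V segments between BCR and ZNF33B. On scaffold 14 of talOcc3 the 12 BMS1P20 loci lay between ZNF33B and LBR, on either side of RSPH14, GNAZ, RAB36 and BCR, with ZNF33B on the far side of the block of 8 from BCR. In the later annotation ZNF33B follows BCR, and between BCR and LBR, which enclose the block of 4 in talOcc3, it lists 117 genes, 66 of them protein-coding and 6 of them V segments. For 2 loci of the block of 8 the nearest usable flanks, CHRM3 and PRAME, lie on different sequences of the later assembly. The 2 annotations were not aligned, so single V segments and single loci were not paired.

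LOC105379528 was close to LOC107986994 in median coding length, but its loci lay mostly on small scaffolds. Its 66 loci lay on 62 scaffolds; 60 (90.9%) were on scaffolds annotated to under 10000 bases and 56 (84.8%) were alone on their scaffold. The coding length was narrow, with a median of 375 bases (quartiles 365 and 418), and the reference interval was nearly constant: over 57 loci in bases the median ran from 1184 to 1525. The score had a median of 84.6% of the highest of the name. A single exon made up 49 models (74.2%), and the 13 models with 2 exons had a gap of 3431 bases at the median and exons of 333 and 312 bases, so that each exon was nearly as long as the covered reference interval, 340 bases at the median. The frame was kept in 44 loci (66.7%). The source proteins were 22 different ones for 63 loci, the commonest giving 11, whereas LOC107986724 drew on 5 proteins for 95 loci. For 1 model the protein named was HV105, a human immunoglobulin heavy variable segment. That model had the lowest score of the 66, 157 against a highest of 409, and the shortest coding length, 153 bases. LOC105379528 had 8 tandem loci, in 4 pairs on scaffolds without a gene of another kind of name. For the 56 loci alone on their scaffold a neighbour of the same name could not be seen. The tandem count therefore does not show how these loci are arranged. In the later annotation the stretch next to CRIP1, TEDC1 and TMEM121, the genes beside the heavy chain locus in human, lists 4 C regions and no V segment.

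**Figure D5:**
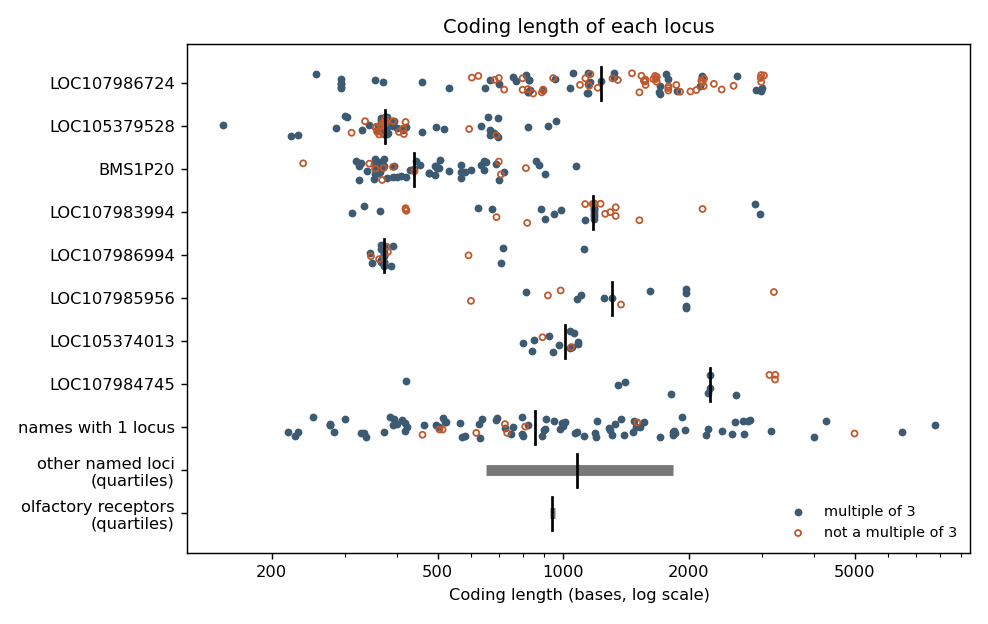
Coding length (bases, log scale) of each locus of the 8 most frequent names and of 98 names with 1 locus, filled where it is a multiple of 3 and open where it is not, with medians as vertical lines; bars give the quartiles of other named loci and of olfactory receptor loci. LOC105379528, LOC107986994 and BMS1P20 have medians of 375, 372 and 439 bases and range from 153 to 963, 345 to 1122 and 238 to 1074 bases. LOC107986724 ranges from 255 to 3029 bases and LOC105374013 from 801 to 1083 bases.

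Small tandem sets were found for names on proteins of known families. LOC647264 and LOC101927016 each had 4 tandem loci, interleaved on scaffold 4 between 7447397 and 7695615, with all 8 on the plus strand and with KRTAP11-1, KRTAP6-3 and KRTAP19-1 as the nearest named genes. Those genes encode keratin-associated proteins, the matrix proteins that bind keratin filaments in hair. For each name 1 model came from a source protein that both share. Mouse Krtap6-2 gave 2 LOC647264 models, and a LOC101927016 model came from KR212, a human keratin-associated protein. Coding lengths were 419, 465, 387 and 609 bases for LOC647264 and 612, 306, 291 and 267 bases for LOC101927016. The mouse coding sequence from which 2 of the loci were modelled is shown because its composition sets what such a short match rests on. The first 300 of its 465 bases are given, from GENCODE M21 (GRCm38, chr16:89419778-89420077, minus strand), and the tyrosine and cysteine codons are in capitals.
Krtap6-2: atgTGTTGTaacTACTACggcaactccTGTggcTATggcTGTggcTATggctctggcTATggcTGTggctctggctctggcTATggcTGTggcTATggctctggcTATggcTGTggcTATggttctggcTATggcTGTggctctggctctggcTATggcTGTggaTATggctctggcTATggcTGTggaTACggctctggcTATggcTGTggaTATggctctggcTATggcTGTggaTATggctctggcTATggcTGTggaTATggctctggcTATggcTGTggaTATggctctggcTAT
Of all 155 codons 66 encode glycine, 35 tyrosine and 24 cysteine, together 80.6%. At 465 bases the whole is as long as the coding part of the second LOC647264 locus, which has 4 exons where the mouse coding sequence is 1 unbroken run.

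Whether tandem loci repeated a sequence or divided it could be read from their reference intervals. LOC374443 had 4 loci on scaffold 34 within 238 kb, all on the minus strand and in frame, with 5, 4, 6 and 5 exons. All 4 covered nearly the same stretch of the reference, from 274, 274, 274 and 230 to 607, 623, 624 and 623, at 92.6% to 100% of the highest score. The named neighbours of the array were KLRF2, a killer cell lectin-like receptor gene, at 122 kb on one side and OVOS2, named after ovostatin, a protease inhibitor, at 83.5 kb on the other, and between KLRF2 and PZP (another protease inhibitor gene) the later annotation lists 11 protein-coding genes. LOC107984125 was the opposite case. Its 3 loci stood side by side on scaffold 20 on the plus strand, and the middle one matched the reference from 299 to 1928 and the next from 1928 to 2312, so that the second interval begins where the first ends. The first locus in order matched 313 to 694, inside the interval of the middle one. Their scores were 24.2%, 100% and 25.4% of the highest.

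Further names with several loci were modelled on a receptor or a mitochondrial protein. LOC101929088 had 3 loci of 1 exon on scaffold 21, of 897, 899 and 927 bases, and 2 of them were modelled on the mouse vomeronasal receptors Vmn1r45 and Vmn1r7, which detect pheromones. LOC105371122 had 4 loci, 3 of them with a single exon, each alone on a scaffold annotated to under 10000 bases, and all 4 were modelled on NU5M, the human mitochondrial NADH dehydrogenase subunit 5. The scores of these 4 loci were 221 to 222 and all matched the reference from 10 to 282, although their coding lengths ran from 1047 to 1609 bases.

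The single-locus names held the long, multi-exon models. LOC105375809 had the longest coding part, 7779 bases in 49 exons on scaffold 38 from 14266159 to 14349857, but its score was 242 and only 58.7% of the model was aligned to the reference. LOC729800 followed with 6471 bases in 29 exons and a score of 846, then LOC105376108 with 4993 bases in 10 exons, not a multiple of 3 and without a score. LOC101930115 had 4254 bases in 32 exons, with 95.2% aligned and a score of 2222, and LOC100996634 had 4002 bases in 28 exons with a score of 2153. The highest score was that of LOC81691, 2677 for 2706 bases in 20 exons, followed by LOC105373310 with 2345 for 3153 bases in 12 exons. LOC107984125, described above, had 2053. The fifth model by exon number, a locus of LOC283440 with 28 exons, had 4.25% of its length aligned and a score of 115. The median score was 429 for names with 1 locus and 216 for the 8 most frequent names, against 1329 for other names with 1 locus. Of the 324 loci of the frequent names 167 had a reference in residues, and whether scores of both kinds share a scale was not tested.

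For the single-locus names, the genes on either side were looked up in the later annotation. Flanks were the nearest genes named once in both annotations, within 10 loci; 90 of the 98 loci had flanks on 1 sequence of the later assembly, against 71 of 324 for the 8 frequent names, of which 247 had no such flank. In 33 single-locus cases the locus was the only one between its flanks. In 30 of these 33 (90.9%) the later annotation lists a protein-coding gene between the same flanks, exactly 1 in 25 and several in 5. For 8535 pairs of neighbours with no locus between them in talOcc3, the later annotation lists a protein-coding gene between in 10.4%. Of the 25 single genes 12 carry a symbol, and the other 13 are LOC numbers again.

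The gene listed at the place of LOC81691, between DCUN1D3 and ERI2, is REXO5, an RNA exonuclease gene. Between PSMD5 and FBXW2, where talOcc3 has LOC100288842 with 4 exons and 1308 coding bases, it is B3GALT9, of the galactosyltransferase family. LOC101929726, a single exon of 252 bases between SLC29A1 and CAPN11, has MYMX in its place, the gene of a micropeptide that fuses muscle cells. LOC105372280, with 219 bases between DHPS and FBXW9, has GNG14, a G protein gamma subunit gene. LOC105369247, between CD2BP2 and QPRT, has SPN, the gene of the leukocyte surface protein CD43. LOC100288778, with 13 exons between DDX11 and IQSEC3, has WASHC1, a subunit of the WASH complex of endosomes. The remaining 6 are BAAT (bile acid conjugation), EIF1AX (a translation initiation factor), FAM237B, IQCM, MDFIC2 and TEX52. In 3 of the 33 cases no protein-coding gene is listed, those of LOC729739, LOC100130701 and LOC105378179. Position between the same neighbours is all that was compared; the sequences were not aligned.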

How the data were processed

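The authors deposited an annotation of talOcc3 in feature format with 1-based positions and a score on each transcript. The meaning of the score was not given in the sources used here. In the deposited file a score goes with a reference interval and the highest score of the name. STAR 2.6.1d and mm9 appear in the submitters' processing notes, with no role stated. No per-sample columns exist in the file (0 unused), so the expression tests planned were not run and depth is unknown.

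Gene, transcript and coding lines were joined in Python 3.11.15 with numpy 2.4.6. Coding length sums the coding parts, and frame means a multiple of 3. Flanks in MPIMG_talOcc4v2.1 were read by symbol, with sequence ends taken where start positions fall back. The tandem and flank steps were tested on simulated data: over 10000 loci, all 100 planted tandem names were found and 0 others, and both flanks were right for all 400 loci.

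Members and lists were chosen with earlier results of these data known. Named were BMS1P20, the LOC names with most loci, the 5 longest, most spliced and best-scored loci, array neighbours and list genes on scaffold 14. Chosen after values were seen were the gap windows, both BMS1P20 stretches, the strand counts, source proteins, flank genes and the other names given. 4 loci have no score and 21 an unclear reference unit. Mole sequences were not used here.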

Additional observations from a re-analysis of the deposited data

How the results depend on the processing

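Processing choices moved 27 of 91 recomputed values, and 64 stayed. A count was called moved where it changed by more than 1.5 times. A share or median was called moved where it left the 95% interval of the value reported. That interval treats the 476 loci as independent, which loci of 1 name are not. It serves here as a yardstick and measures no spread between replicates. Only scaffolds annotated to 1000000 bases or beyond left 247 loci, 56 tandem loci, 42 scaffolds, a single-exon share of 37.7%, a median coding length of 828 bases, 76.9% in frame, a median score of 94.1% of the highest, 370 reference bases covered and 0 loci on short scaffolds. With 1 locus per name there were 44 scaffolds, 24.6% single-exon loci, a median of 3 exons and 861 coding bases, 89.3% in frame, 100% of the highest score, 418 bases or 233 residues covered, and 6 loci on short scaffolds. Without LOC107986724 the values were 39.6% single-exon, 593 coding bases, 78.2% in frame and 88.0% of the highest score. Without BMS1P20 they were 821 coding bases and 342 bases covered. Keeping scores of at least 50% of the highest gave a median of 86.7%, by construction. Names as written numbered 475, and 1 of them had several loci. These counts, the 100% of the highest score with 1 locus per name and the 0 loci on short scaffolds were likewise fixed by their settings. Beyond the loci each setting leaves out, the cause of these shifts was not tested. No paired analysis was possible because no value of any library is in the annotation. The replicate block and the expression comparisons were therefore not run. Gene models show neither expression nor function, and scaffold length is known only from the last annotated base.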
